A study of Homo sapiens with 11 samples.

Results

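Expression of 10 genes of the ERBB receptor pathway was examined in prostate cancer cells that overexpress the sialyltransferase ST6GAL1. They were chosen by name, with earlier results of these data known, out of the 28395 genes in each count table, and comprise 4 receptor genes (EGFR, ERBB2, ERBB3 and MET) and 6 ligand genes (AREG, EREG, HBEGF, TGFA, BTC and EPGN). Both lines come from human prostate carcinoma, PC3 from a bone metastasis and DU145 from a brain metastasis. Cells of each line had been transduced with Lenti-ORF particles, either a negative control or particles for stable ST6GAL1 overexpression, so that control cells also carry a lentivirus. RNA-Seq counts came from 6 PC3 libraries, 3 of control and 3 of overexpression cells, and from 5 DU145 libraries, 3 of control and 2 of overexpression cells, the latter numbered replicates 2 and 3. Nothing beyond the label of biological replicate says whether the libraries came from separate transductions, so p-values measure the spread between these libraries, which may be technical.

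ERBB receptors are tyrosine kinases of the cell surface that pair up once a ligand is bound and then signal through RAS, ERK and AKT. EGFR binds amphiregulin (AREG), epiregulin (EREG), HB-EGF (HBEGF), TGF-alpha (TGFA), betacellulin (BTC) and epigen (EPGN), which are made as membrane precursors and released by proteases. ERBB2 has no known ligand and acts as the partner of the other receptors, ERBB3 has a weak kinase and binds neuregulins, and MET is the separate receptor of HGF that can be active together with EGFR in carcinomas. EGFR and MET carry N-glycans, the class of glycan to which ST6GAL1 adds sialic acid, and are known substrates of the enzyme. RNA counts do not measure glycans or receptor protein.

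Library totals on genes lay between 14737057 and 18201359 counts in PC3 and between 13194485 and 18082248 in DU145, so that 3 counts, taken as the floor, equal 0.165 to 0.227 CPM, the count scaled to library size. Floors cover counting error only. ST6GAL1 itself was higher in every overexpression library than in every control library of its line, with log2 fold changes of 3.58 in PC3 and 4.65 in DU145. The epithelial markers KRT8, KRT18, EPCAM and CDH1 were read in all 11 libraries, and KLK3, the gene of prostate specific antigen, had no count in any library. Of 5 markers of leukocytes, fibroblasts and endothelium, 3 reached 10 counts in every library of both PC3 groups, and their summed level was 35.6 to 37.4 CPM in PC3 control and 37.4 to 42.6 CPM in PC3 overexpression libraries. In DU145 it was 5.40 to 7.76 CPM in the control and 4.59 to 8.52 CPM in the overexpression libraries, where the leukocyte marker PTPRC was at 0. Of the 5 markers, 1 reached 10 counts in every DU145 control library and 3 in every DU145 overexpression library. With overexpression in PC3, CDH1, the gene of E-cadherin (log2 fold change 1.37), and the collagen gene COL3A1 (1.98) rose, KRT8 (-0.21) and the collagen gene COL1A1 (-0.47) fell, and KRT18 (0.02), EPCAM (0.12) and the endothelial marker PECAM1 (-0.14) did not pass the edgeR test described below. In DU145, KRT8 (-0.27), KRT18 (-0.25) and EPCAM (-0.35) fell, CDH1 (0.26) rose, and so did PECAM1 (1.63), on 3, 7 and 6 counts against 12 and 26, while COL1A1 (-0.33) and the fibroblast marker PDGFRB (1.39) did not pass. The part of these markers in the results was not tested. The 2 DU145 overexpression libraries stood apart from each other, with a chi-square per degree of freedom of 13.3 over genes against 1.39 to 5.46 for pairs of libraries of the other groups, so the DU145 values of the ERBB receptor, MET and ligand genes are also given without each of them, as are those of other pathway genes whose call was then lost. Such a fit leaves 1 overexpression library, so its adjusted p takes the spread from the other groups. It holds no measure of the spread between overexpression libraries.

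Of the ligand genes, 4 lie in 1 cluster on chromosome 4 of GRCh38. EPGN spans chr4:74308470-74316789, EREG chr4:74365145-74388749, AREG chr4:74445136-74455005 and BTC chr4:74744759-74794523, in all 486 kb. The 250 bases before the start of each of these genes are shown because the genes of this cluster are set side by side below, and those of HBEGF and EGFR because both fell in PC3. TGFA also fell in PC3, by less than these, and is not printed. The sequences are from RefSeq (GRCh38.p14), on the strand of the gene, which is minus for BTC and HBEGF, and are chr4:74308220-74308469, chr4:74364895-74365144, chr4:74444886-74445135, chr4:74794524-74794773, chr5:140346604-140346853 and chr7:55018767-55019016. Capitals mark matches on either strand. The TATA box was searched as TATAAA. The cyclic AMP response element was searched as TGACGTCA. The GC box was searched as GGGCGG, and appears in its reverse complement where it matched the other strand. The AP-1 motif, of which these 6 stretches hold no match, was searched as TGANTCA.
EPGN: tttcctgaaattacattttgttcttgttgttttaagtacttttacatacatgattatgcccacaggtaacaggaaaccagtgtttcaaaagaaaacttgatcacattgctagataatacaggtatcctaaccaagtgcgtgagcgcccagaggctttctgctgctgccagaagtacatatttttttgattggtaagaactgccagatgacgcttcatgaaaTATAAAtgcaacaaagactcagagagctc
EREG: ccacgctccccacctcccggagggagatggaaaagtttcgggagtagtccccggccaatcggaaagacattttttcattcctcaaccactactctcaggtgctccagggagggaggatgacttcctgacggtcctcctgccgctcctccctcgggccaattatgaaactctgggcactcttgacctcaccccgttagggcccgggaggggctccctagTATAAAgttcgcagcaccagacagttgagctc
AREG: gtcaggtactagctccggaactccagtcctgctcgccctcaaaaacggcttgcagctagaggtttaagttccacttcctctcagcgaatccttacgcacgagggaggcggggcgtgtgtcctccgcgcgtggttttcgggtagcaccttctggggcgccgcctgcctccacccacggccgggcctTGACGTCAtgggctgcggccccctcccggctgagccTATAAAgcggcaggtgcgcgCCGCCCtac
BTC: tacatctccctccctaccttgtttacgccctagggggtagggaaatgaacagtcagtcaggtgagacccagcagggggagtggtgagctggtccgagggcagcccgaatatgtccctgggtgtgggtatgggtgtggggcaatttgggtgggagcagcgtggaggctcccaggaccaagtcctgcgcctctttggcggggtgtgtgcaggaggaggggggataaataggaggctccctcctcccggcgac
HBEGF: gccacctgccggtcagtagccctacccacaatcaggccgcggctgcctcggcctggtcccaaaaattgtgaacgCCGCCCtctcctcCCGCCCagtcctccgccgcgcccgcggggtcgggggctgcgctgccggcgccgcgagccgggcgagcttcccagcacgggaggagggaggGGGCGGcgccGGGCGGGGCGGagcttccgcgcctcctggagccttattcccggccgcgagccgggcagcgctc
EGFR: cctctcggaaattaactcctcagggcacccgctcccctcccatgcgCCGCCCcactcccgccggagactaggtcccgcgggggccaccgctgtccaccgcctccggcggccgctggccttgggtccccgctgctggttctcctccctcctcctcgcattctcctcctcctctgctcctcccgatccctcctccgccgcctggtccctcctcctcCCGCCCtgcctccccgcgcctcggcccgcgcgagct
EPGN, EREG and AREG each had a TATAAA match, starting 29, 32 and 29 bases before the gene start, against 10.7% of 35116 promoters of the same table. The AREG stretch alone among the 9 genes with an entry held TGACGTCA, 65 bases before its start, a motif present in 1.65% of promoters. GGGCGG was matched 5 times before HBEGF, 3 times before TGFA, 2 times each before EGFR and MET and 1 time before AREG, with overlapping matches counted, and 42.6% of promoters held it. The AP-1 motif was matched 1 time, before ERBB2, and in 6.57% of promoters. ERBB2, MET and TGFA are not printed, and ERBB3 had no entry. These matches describe letters only and are no evidence that a factor binds there.

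To find which receptor and ligand genes each line expresses without added ST6GAL1, levels in control cells were compared as CPM per kb of the MANE Select transcript, which allows genes of different length to be set side by side. In PC3 control cells MET was read highest at 87.3 ± 1.80 CPM per kb (SD, n = 3) and AREG next at 74.9 ± 0.345. HBEGF followed at 18.5 ± 0.141, TGFA at 17.5 ± 0.482, ERBB2 at 12.9 ± 0.767 and EGFR at 10.2 ± 0.434. ERBB3 at 2.09 ± 0.130 and BTC at 2.00 ± 0.331 overlapped, and were the only neighbours in this order that did. EPGN at 0.501 ± 0.0185 and EREG at 0.325 ± 0.0501 were lowest. MET thus made up 77.6% of the summed level of the 4 receptor genes in PC3 control cells (76.8% to 78.6% over libraries), and AREG 65.9% of that of the 6 ligand genes (65.7% to 66.1%).

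In DU145 control cells AREG was read highest at 103.1 ± 8.37 CPM per kb (SD, n = 3), ahead of ERBB2 at 45.4 ± 1.65 and MET at 30.8 ± 1.05. EREG at 19.0 ± 1.33, ERBB3 at 16.2 ± 1.06 and EGFR at 13.8 ± 1.37 came next, followed by TGFA at 9.07 ± 0.255, BTC at 3.25 ± 0.126 and HBEGF at 2.69 ± 0.126. No neighbours in this order overlapped between libraries. EPGN had 0, 0 and 1 counts, under the floor. ERBB2 was the largest of the receptor genes with 42.8% of their sum (42.0% to 43.2%), and AREG held 75.2% of the ligand sum (73.8% to 77.2%). With the length of all annotated exons in place of the MANE transcript, some neighbours swapped places, HBEGF with TGFA, ERBB2 with EGFR and ERBB3 with BTC in PC3, and ERBB2 with MET and ERBB3 with EGFR in DU145.

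**Figure D1:**
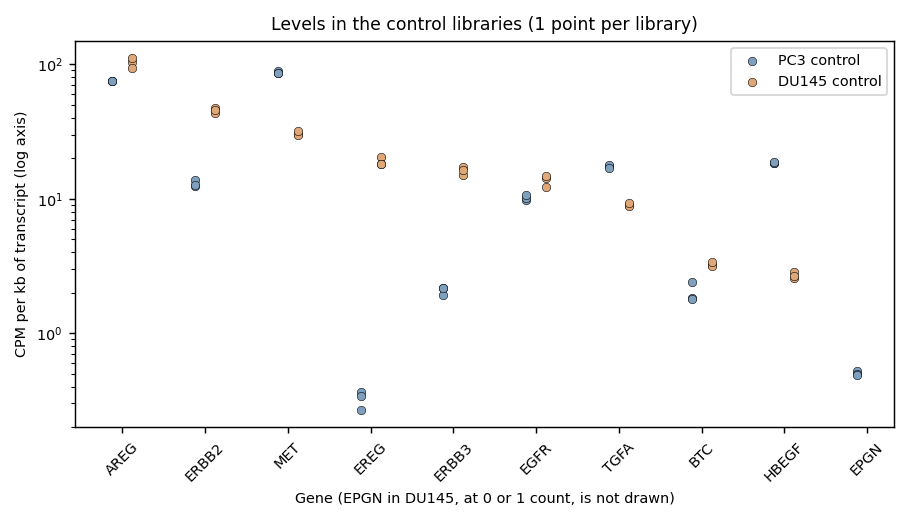
Levels of the 10 genes in the 3 PC3 and 3 DU145 control libraries, each point a library, in CPM per kb of transcript on a log axis, with EPGN in DU145 not drawn (0 or 1 count). EREG and ERBB3 sat higher in DU145, MET, HBEGF and TGFA higher in PC3, and AREG was near the top of both lines.

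Between the control lines all 10 genes had an adjusted p under 0.05, 6 being higher and 4 lower in DU145, as did 86.3% of the 14952 genes tested in 1 fit over all 11 libraries, 42.8% higher and 43.5% lower. Beyond a log2 fold change of 0.58 there were 4 higher and 4 lower, against 64.9% of all genes, 31.7% higher and 33.2% lower. Line, count table and date of deposit cannot be told apart in this contrast. EREG was far higher in DU145, with 30, 25 and 19 counts in PC3 and 1431, 1330 and 1116 in DU145 control libraries, a log2 difference of 5.85 (standard error 0.107). ERBB3 (2.95), ERBB2 (1.81) and BTC (0.70) were also higher in DU145, while HBEGF (-2.78), MET (-1.50) and TGFA (-0.95) were lower there. EPGN was lower there too, but its fitted difference of -5.47, from -7.46 to -4.98 when single libraries were omitted, rests on DU145 counts under the floor, so that its size is not settled. AREG (0.46) and EGFR (0.44) were higher in DU145 by less than the threshold.

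In PC3 cells, ST6GAL1 overexpression went with lower EGFR, HBEGF and TGFA and with higher ERBB2, ERBB3, AREG and EPGN, whereas MET, EREG and BTC did not pass the test. With edgeR's quasi-likelihood test and Benjamini-Hochberg adjustment over 13544 genes, 4 of the 10 rose and 3 fell at an adjusted p under 0.05, where 37.3% of all genes passed, 18.8% higher and 18.5% lower. All changes but that of EPGN were smaller than a log2 fold change of 0.58. That threshold was passed by 1 of the 10 genes, which was higher, and by 5.38% of all genes, 3.61% higher and 1.76% lower. The groups did not overlap for 7 of the 10, 4 of them higher and 3 lower with overexpression, against 46.2% of all genes, 23.2% higher and 23.0% lower. The median log2 fold change of the 10 was 0.07, and that of all genes was -0.0016. In RNA from whole cultures, a change in the number of cells that express a gene and a change in RNA per cell cannot be told apart.

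Among the receptor genes in PC3, EGFR was read at 96.5, 101.1 and 105.2 normalized CPM in control cells and at 81.9, 81.7 and 79.95 in the overexpression libraries. All 3 overexpression libraries lay below all 3 control libraries, and the gene fell by 0.31 on the log2 scale (standard error 0.0385, edgeR adjusted p = 1.03e-08). ERBB2, the partner receptor, was at 56.7, 63.2 and 57.4 CPM in control cells and at 71.0, 68.3 and 73.6 with overexpression, again without overlap. This was a rise of 0.26 on the log2 scale (standard error 0.0453, edgeR adjusted p = 8.92e-06). ERBB3 was low, at 12.2, 10.9 and 12.2 CPM in control cells against 13.7, 15.8 and 12.8, and rose by 0.27 (standard error 0.0901, edgeR adjusted p = 0.0151). Its lowest overexpression library was close to its highest control library, and the call was lost without control replicate 2 (log2 fold change 0.22, edgeR adjusted p = 0.0663) or overexpression replicate 2 (0.17, adjusted p = 0.199) and with DESeq2 (adjusted p = 0.0960). MET, the most highly read of the receptor genes, was at 609.2, 586.8 and 594.3 CPM in control cells and at 614.8, 603.8 and 609.3 with overexpression. These ranges overlapped, and the log2 fold change of 0.03 did not pass the test (standard error 0.0243, edgeR adjusted p = 0.367).

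Among the ligand genes in PC3, HBEGF, which also serves as the receptor of diphtheria toxin, was at 43.4, 43.4 and 43.998 CPM in control cells and at 32.3, 36.1 and 35.5 with overexpression. It fell by 0.33 on the log2 scale without overlap of the groups (standard error 0.0534, edgeR adjusted p = 3.81e-06). TGFA was at 72.0, 74.0 and 70.0 CPM against 69.8, 64.9 and 64.6, with the highest overexpression library just under the lowest control library, and fell by 0.12 (standard error 0.0424, edgeR adjusted p = 0.0240). AREG varied least, with 92.9, 92.4 and 92.4 CPM in control cells and 102.2, 99.5 and 97.6 with overexpression, a rise of 0.11 (standard error 0.0362, edgeR adjusted p = 0.0169). Both of these small changes depended on single libraries and on the tool. That of AREG was lost without overexpression replicate 1 (log2 fold change 0.09, edgeR adjusted p = 0.0880), and that of TGFA without control replicate 2 (-0.099, adjusted p = 0.0815), overexpression replicate 2 (-0.10, adjusted p = 0.122) or overexpression replicate 3 (-0.10, adjusted p = 0.118), and DESeq2 gave adjusted p of 0.0726 for AREG and 0.110 for TGFA. With all 11 libraries in 1 fit, the adjusted p from edgeR was 0.220 for AREG, 0.153 for TGFA and 0.0598 for ERBB3. EPGN rested on few reads, with counts of 25, 21 and 20 in control cells against 35, 36 and 46 with overexpression. It rose by 0.84 on the log2 scale (standard error 0.231, edgeR adjusted p = 0.00353), from 0.69 to 0.97 when single libraries were omitted. EREG, with counts of 30, 25 and 19 against 31, 33 and 25, had a log2 fold change of 0.28 (edgeR adjusted p = 0.386), and BTC, with 87, 75 and 97 against 60, 98 and 85, had one of -0.09 (adjusted p = 0.688), and in both genes the groups overlapped.

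**Figure D2:**
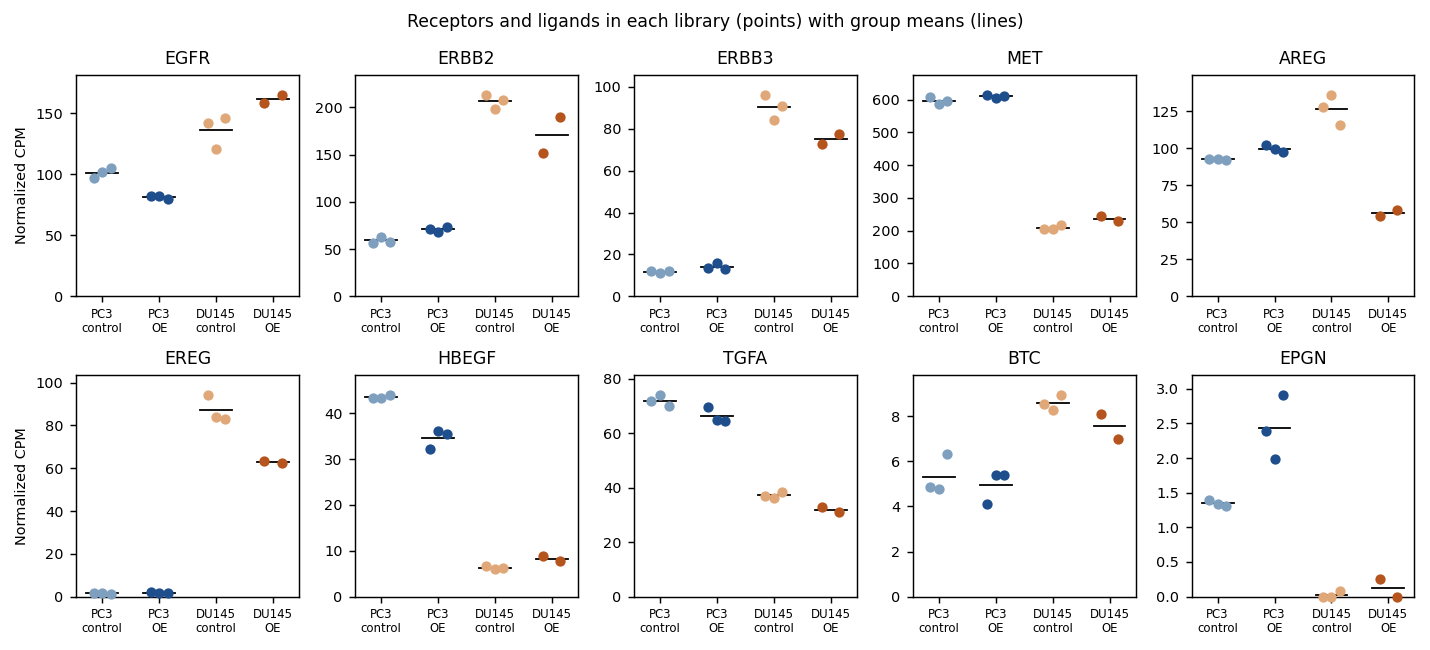
Normalized CPM of the 10 genes in each of the 11 libraries (points), scaled within each line by TMM factors, with the group means as lines and each axis starting at 0. In PC3 the overexpression points of EGFR, HBEGF and TGFA lie below all control points and those of ERBB2, ERBB3, AREG and EPGN above. In DU145 those of AREG, EREG, ERBB2, ERBB3, TGFA and BTC lie below all control points and those of EGFR, HBEGF and MET above.

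In DU145 cells, overexpression of ST6GAL1 went with lower AREG and EREG, the ligand genes read at the highest levels in this line, and with slightly lower ERBB3. The test covered 9 of the 10 genes, since EPGN, with counts of 0, 0 and 1 in the control and 4 and 0 in the overexpression libraries, did not pass the filter on low counts. None of the 9 rose and 3 fell at an adjusted p under 0.05 (edgeR, over 13676 genes), where 20.1% of all genes passed, 10.7% higher and 9.42% lower. Beyond the fold change threshold there was 1 gene, AREG, which was lower, against 8.94% of all genes, 4.33% higher and 4.61% lower. The groups did not overlap for any of the 9 genes, 3 being higher and 6 lower with overexpression, against 48.3% of all genes, 25.2% higher and 23.1% lower. The median log2 fold change was -0.22 over the 9 genes and -0.0016 over all genes.

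AREG was at 128.1, 136.2 and 116.0 CPM in DU145 control cells and at 54.5 and 58.3 with overexpression. Both overexpression libraries were thus under the lowest control value by a wide margin, and AREG fell by 1.17 on the log2 scale, to 0.445 of the control level (standard error 0.0887, edgeR adjusted p = 8.81e-07). Without overexpression replicate 2 the log2 fold change was -1.13 and without replicate 3 it was -1.22. EREG was at 94.3, 84.0 and 83.2 CPM in control cells and at 63.3 and 62.5 with overexpression. It fell by 0.47 (standard error 0.0846, edgeR adjusted p = 0.00131), and by 0.49 and 0.46 without overexpression replicates 2 and 3. BTC, the fourth gene of the cluster, was at 8.56, 8.27 and 8.95 CPM against 8.09 and 7.02, and its log2 fold change of -0.19 did not pass the test (standard error 0.146, edgeR adjusted p = 0.407), with -0.30 (adjusted p = 0.233) and -0.085 (adjusted p = 0.734) without overexpression replicates 2 and 3. TGFA at 37.1, 36.2 and 38.3 CPM against 32.8 and 31.0 (log2 fold change -0.22, edgeR adjusted p = 0.114) did not pass either, nor did it without overexpression replicate 2 (-0.27, adjusted p = 0.0713) or 3 (-0.18, adjusted p = 0.193). HBEGF, a minor ligand gene in DU145, was at 6.65, 6.06 and 6.27 CPM in control cells against 8.86 and 7.69. Its log2 fold change of 0.38 did not pass (edgeR adjusted p = 0.0909) and lay between 0.27 (adjusted p = 0.297) without overexpression replicate 2 and 0.49 (adjusted p = 0.0330) without replicate 3.

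Of the DU145 receptor genes, EGFR was at 141.6, 120.5 and 146.2 CPM in control cells and at 158.5 and 165.0 with overexpression. Both overexpression values lay above the controls, and the log2 fold change of 0.25 missed the threshold (standard error 0.0869, edgeR adjusted p = 0.0578), with 0.27 (adjusted p = 0.0557) and 0.22 (adjusted p = 0.0761) without overexpression replicates 2 and 3. ERBB2 was at 213.4, 198.2 and 207.4 CPM against 151.4 and 190.1, so that 1 overexpression library was well under the controls and the other just under them. Its log2 fold change was -0.27 (standard error 0.0938, edgeR adjusted p = 0.0595), -0.13 (adjusted p = 0.286) without overexpression replicate 2 and -0.45 (adjusted p = 2.24e-04) without replicate 3. ERBB3 was at 96.3, 84.3 and 90.9 CPM against 72.9 and 77.3 and fell by 0.27 (standard error 0.0834, edgeR adjusted p = 0.0357). This call was lost without any 1 of control replicates 1, 2 and 3 (edgeR adjusted p = 0.167, 0.0513 and 0.0893) or without overexpression replicate 2 (-0.24, adjusted p = 0.0685), and it held without overexpression replicate 3 (-0.31, adjusted p = 0.0105). MET was at 206.4, 203.9 and 217.6 CPM against 244.5 and 228.5, a log2 fold change of 0.18 that did not pass (standard error 0.0734, edgeR adjusted p = 0.110), with 0.12 (adjusted p = 0.313) and 0.23 (adjusted p = 0.0270) without overexpression replicates 2 and 3. When all 11 libraries shared 1 estimate of the spread, 5 of these DU145 genes moved past an adjusted p of 0.05, namely EGFR (0.00951), ERBB2 (0.0134), MET (0.0150), HBEGF (0.0206) and TGFA (0.0169). With no filter on low counts, EGFR (0.24, edgeR adjusted p = 0.0319) and ERBB2 (-0.28, adjusted p = 0.0182) passed as well. An offset for GC content and length made 3 receptor values smaller. They were 0.19 for EGFR (edgeR adjusted p = 0.173), -0.18 for ERBB2 (adjusted p = 0.234) and 0.11 for MET (adjusted p = 0.336). ERBB3 still passed with this offset (-0.26, edgeR adjusted p = 0.0434). DESeq2 gave adjusted p of 0.108 for EGFR, 0.0644 for ERBB2 and 0.145 for MET.

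**Figure D3:**
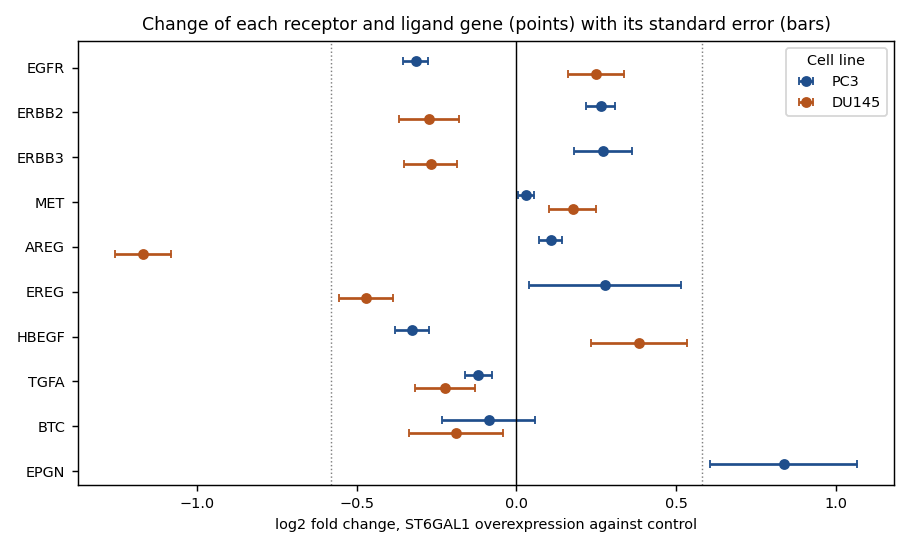
log2 fold change with ST6GAL1 overexpression of each gene in PC3 and in DU145 (points) with its standard error from edgeR (bars), and dotted lines at the threshold of 0.58 in either direction. EGFR and HBEGF lie at -0.31 and -0.33 in PC3 against 0.25 and 0.38 in DU145, ERBB2 and ERBB3 at 0.26 and 0.27 against -0.27 and -0.27, and AREG at 0.11 against -1.17, while EPGN was not tested in DU145.

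The question whether a gene responded differently in DU145 and PC3 was put to an interaction term, the change in DU145 minus the change in PC3, fitted on all 11 libraries. Of the 10 genes 6 had an adjusted p under 0.05, 2 with a positive and 4 with a negative difference, where 19.7% of all genes did, 10.4% positive and 9.36% negative. Of these 6, 1 positive and 2 negative differences also passed the fold change threshold, as did 8.72% of all genes, 3.86% positive and 4.86% negative. AREG had a difference of -1.28 on the log2 scale (standard error 0.0875, edgeR adjusted p = 3.83e-09), from -1.35 to -1.23 when single libraries were omitted. HBEGF differed by 0.71 (standard error 0.135, edgeR adjusted p = 8.47e-04) and EREG by -0.75 (standard error 0.217, edgeR adjusted p = 0.0186). For EREG the PC3 side rested on 19 to 33 counts per library, and the call was lost without PC3 control replicate 3 (-0.64, adjusted p = 0.0647) or PC3 overexpression replicate 1 (-0.66, adjusted p = 0.0688). EGFR differed by 0.56 (standard error 0.0918, edgeR adjusted p = 1.91e-04), ERBB2 by -0.54 (standard error 0.109, adjusted p = 0.00208) and ERBB3 by -0.54 (standard error 0.122, adjusted p = 0.00333), all under the fold change threshold. When single libraries were omitted, the difference ranged from 0.48 to 0.61 for EGFR and from -0.61 to -0.45 for ERBB3, so both crossed 0.58 in some fits. Without DU145 overexpression replicate 3, the differences of ERBB2 (-0.73) and ERBB3 (-0.60) were beyond that threshold. Without replicate 2 the difference of EGFR was 0.584, just past the threshold, and that of ERBB2 was -0.39. MET (0.14, edgeR adjusted p = 0.150), TGFA (-0.11, adjusted p = 0.420), BTC (-0.11, adjusted p = 0.779) and EPGN (1.23, adjusted p = 0.556, on DU145 counts of 0 to 4) did not pass, although MET did without DU145 overexpression replicate 3 (0.18, adjusted p = 0.0379). The PC3 and DU145 comparisons share no library.

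The balance among ligand genes is described by the share that each took of their summed level. Summed over the 6 ligand genes, the level in DU145 was 127.8 to 143.7 CPM per kb in control cells and 72.5 and 74.3 with overexpression. AREG held 73.8% to 77.2% of this sum in the control and 60.7% and 63.6% in the overexpression libraries, while the share of EREG went from 12.7% to 14.7% up to 18.3% and 18.8% and that of HBEGF from 1.80% to 2.09% up to 4.39% and 5.16%. In PC3 the sum was 113.4 to 113.9 CPM per kb in the control and 113.1 to 116.1 in the overexpression libraries, the share of AREG was 65.7% to 66.1% and then 69.8% to 71.2%, and that of HBEGF 16.2% to 16.4% and then 11.8% to 13.3%. Among the 4 receptor genes EGFR held 8.58% to 9.46% of the sum in PC3 control and 6.97% to 7.20% in PC3 overexpression libraries, against 12.1% to 13.6% and then 15.8% and 16.3% in DU145. ERBB2 held 42.0% to 43.2% in DU145 control libraries and 33.9% and 39.5% with overexpression. These shares describe levels per kb and were not tested, and a share can change through any gene of its sum.

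The other receptor and ligand genes of the family were described from a list of 9. ERBB4, the remaining family receptor, had 32 to 57 counts in every PC3 library with overlapping groups (log2 fold change 0.13, edgeR adjusted p = 0.679) and 0 to 2 counts in the DU145 libraries, under the floor. EGF, the ligand that names the family, was at 4.05 to 5.14 CPM in PC3 control and 3.68 to 4.30 CPM in PC3 overexpression libraries, and at 7.18 to 8.50 CPM and 7.35 and 8.35 CPM in DU145. Its log2 fold changes of -0.22 in PC3 (edgeR adjusted p = 0.272) and 0.04 in DU145 (adjusted p = 0.891) did not pass. The neuregulin gene NRG1, whose product binds ERBB3 and ERBB4, had no count in any PC3 library, and 20, 28 and 17 counts in DU145 control against 9 and 9 in DU145 overexpression libraries, a fall of 1.42 (standard error 0.371, edgeR adjusted p = 0.0148) that was lost without control replicate 2 (-1.27, adjusted p = 0.0844) and with DESeq2 (adjusted p = 0.0913). NRG1 was at least 7.41-fold higher in DU145 than in PC3 control cells, against the largest floor of 3 counts per library. NRG2 was at 22.3, 20.8 and 21.4 CPM in PC3 control and 24.6, 21.2 and 21.9 in PC3 overexpression libraries (log2 fold change 0.06, edgeR adjusted p = 0.539). In DU145 it was at 6.13, 5.75 and 5.52 CPM against 2.46 and 4.18 and fell by 0.79 (standard error 0.214, edgeR adjusted p = 0.0184). That call was lost without overexpression replicate 2 (-0.48, adjusted p = 0.101) or any 1 of control replicates 1, 2 and 3 (adjusted p = 0.0972, 0.110 and 0.0617), with DESeq2 (adjusted p = 0.0599) and with an offset for GC content and length (-0.56, adjusted p = 0.0890), and the value was -1.24 (adjusted p = 4.36e-04) without overexpression replicate 3.

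NRG4 had no count in PC3 control, 4, 4 and 0 counts in PC3 overexpression libraries and 70 to 102 counts in DU145 libraries, where its log2 fold change of 0.16 did not pass (edgeR adjusted p = 0.565). It was at least 27.2-fold higher in DU145 than in PC3 control cells. NRG3 had 0 to 2 counts in every library. HGF, the ligand of MET, had 3 to 10 counts in the PC3 libraries and none in the DU145 libraries, so that its expression was at most near the floor in both lines. MST1, the ligand of the MET relative MST1R, was at 4.76, 4.38 and 3.46 CPM in PC3 control and at 5.66, 7.24 and 6.20 in PC3 overexpression libraries, a rise of 0.60 (standard error 0.142, edgeR adjusted p = 7.79e-04, or 0.0663 with all 11 libraries in 1 fit). MST1 has near-identical copies in the genome, so its counts are uncertain. In DU145 its 2 overexpression libraries lay on both sides of the controls (1.36 and 3.29 CPM against 1.19, 1.58 and 2.16), and its log2 fold change of 0.54 did not pass (edgeR adjusted p = 0.388), being 1.00 (adjusted p = 0.0268) without overexpression replicate 2 and -0.26 (adjusted p = 0.668) without replicate 3. MST1R rose in PC3 from 94.9, 109.7 and 99.2 to 128.9, 129.3 and 126.4 CPM (log2 fold change 0.34, edgeR adjusted p = 2.55e-09). In DU145 it did not pass the test (-0.02, adjusted p = 0.952), with 34.6, 37.4 and 43.6 CPM against 31.9 and 44.1.

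Genes for the release of EGF family ligands and for the activation of HGF formed a list of 16. In PC3 13 were tested, of which 4 rose and 3 fell at an adjusted p under 0.05 and 1 passed the fold change threshold, where 37.3% of all genes had such a p and 5.38% were called. In DU145 14 were tested, of which 2 rose and 5 fell and 4 passed the threshold, against 20.1% and 8.94% of all genes. ST14, the gene of matriptase, a surface protease that can activate HGF, moved in opposite directions. It was at 2.91, 2.54 and 2.35 CPM in PC3 control and at 14.9, 16.6 and 17.9 in PC3 overexpression libraries, and rose by 2.66 (standard error 0.121, edgeR adjusted p = 1.58e-21). In DU145 it was at 14.6, 15.1 and 15.6 CPM in the control and 2.39 and 3.29 in the overexpression libraries, and fell by 2.39 (standard error 0.169, edgeR adjusted p = 4.21e-07). The difference between the lines was -5.05 (standard error 0.195, edgeR adjusted p = 1.80e-12). SPINT1, which encodes the matriptase inhibitor HAI-1, fell by 1.17 in DU145, from 48.9, 48.5 and 48.3 to 19.9 and 23.2 CPM (edgeR adjusted p = 2.73e-06), and did not pass in PC3 (0.14, adjusted p = 0.0655).

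ADAM12, a metalloprotease gene linked to HB-EGF shedding, rose by 1.66 in DU145, from 2.90, 2.65 and 3.13 to 9.44 and 8.80 CPM (standard error 0.166, edgeR adjusted p = 9.34e-06). In PC3 it fell by 0.32 (edgeR adjusted p = 0.00447), a call that was lost without control replicate 1 (-0.22, adjusted p = 0.0802). RHBDL2, a rhomboid protease gene, had 22, 24 and 19 counts in DU145 control and 3 and 5 in DU145 overexpression libraries, a log2 fold change of -2.57 (standard error 0.431, edgeR adjusted p = 7.84e-04), and did not pass in PC3 (0.11, adjusted p = 0.740). ADAM17, the main sheddase of amphiregulin and TGF-alpha precursors, did not pass in PC3 (-0.05, adjusted p = 0.459), and in DU145 it went from 146.7, 135.0 and 137.3 to 170.3 and 161.0 CPM, a rise of 0.25 (edgeR adjusted p = 0.0317). This was lost without any 1 of the control libraries (adjusted p = 0.0845, 0.156 and 0.116), without overexpression replicate 2 (0.20, adjusted p = 0.0833) and with the GC and length offset (0.14, adjusted p = 0.228). RHBDF2, whose product brings ADAM17 to the surface, fell by 0.15 in PC3 (edgeR adjusted p = 0.00208, or 0.201 with all 11 libraries in 1 fit) and by 0.39 in DU145 (adjusted p = 0.0496). The DU145 value of RHBDF2 was -0.19 (adjusted p = 0.221) without overexpression replicate 2 and -0.64 (adjusted p = 1.85e-04) without replicate 3, and was -0.16 (adjusted p = 0.445) with the GC and length offset, and the call was also lost without each control library (adjusted p = 0.139, 0.172 and 0.189), with DESeq2 (adjusted p = 0.0635), with RLE factors (edgeR adjusted p = 0.0519) and with at least 10 counts in every library (adjusted p = 0.0563).

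The list of negative regulators held 17 genes, all tested in both lines. In PC3 3 rose and 5 fell, of which 2 passed the fold change threshold, where 18.8% of all genes rose, 18.5% fell and 5.38% were called. In DU145 4 rose and none fell, of which 1 passed the threshold, against 10.7%, 9.42% and 8.94% of all genes. In DU145 the median log2 fold change was 0.15, and in PC3 it was -0.04. ERRFI1, whose product MIG6 binds and inhibits the EGFR kinase and is itself made in response to ERBB signalling, was at 249.4, 250.7 and 245.2 CPM in PC3 control and at 150.4, 164.0 and 160.0 in PC3 overexpression libraries. It fell by 0.65 there (standard error 0.0313, edgeR adjusted p = 1.23e-20). In DU145 ERRFI1 rose by 0.48, from 345.2, 330.8 and 302.2 to 466.7 and 440.9 CPM (standard error 0.0791, edgeR adjusted p = 7.22e-04), and the difference between the lines was 1.12 (standard error 0.0772, edgeR adjusted p = 4.17e-09). EGFR and HBEGF gave the same signs as ERRFI1 in each line, although neither passed the test in DU145. ERBB2, ERBB3, AREG and EREG gave the opposite sign in each line, although EREG did not pass in PC3 and ERBB2 did not pass in DU145. MET, TGFA and BTC did not match ERRFI1 in both lines. Whether any of these changes are linked was not tested. CBLB, a ubiquitin ligase gene, rose by 0.98 in DU145, from 14.2, 13.96 and 14.9 to 28.1 and 28.4 CPM (edgeR adjusted p = 2.21e-05), and was at 28.8 to 30.0 CPM in the PC3 libraries of both groups (adjusted p = 0.975). CBLC rose by 1.17 in PC3 on counts of 16, 7 and 10 against 20, 33 and 21 (edgeR adjusted p = 0.00218) and did not pass in DU145 (0.43, adjusted p = 0.279), with 0.64 (adjusted p = 0.129) and 0.15 (adjusted p = 0.755) without overexpression replicates 2 and 3. LRIG1, whose product promotes the breakdown of ERBB receptors, rose by 0.42 in PC3, from 5.32, 5.46 and 5.36 to 7.64, 7.30 and 6.71 CPM (edgeR adjusted p = 0.00566), and did not pass in DU145 (0.22, adjusted p = 0.212).

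Adaptor and effector genes carry the signal from the receptors to RAS, ERK and AKT. Of 22 listed, 20 were tested in PC3, where 3 rose and 2 fell, and 21 in DU145, where 2 rose and none fell, and none passed the fold change threshold in either line. Of all genes, 37.3% in PC3 and 20.1% in DU145 had an adjusted p under 0.05, and 5.38% and 8.94% were called. The log2 fold changes of the listed adaptor and effector genes lay between -0.14 and 0.21 in PC3 and between -0.24 and 0.40 in DU145. The effector gene STAT3, singled out after its values were seen, had no count in any PC3 library and 314.0 to 335.4 CPM in DU145 control libraries, at least 1665-fold higher. Whether PC3 lacks these transcripts or the counting missed them was not tested. Over the 64 listed genes other than the 10, 12 rose and 10 fell among 55 tested in PC3 and 8 rose and 7 fell among 58 tested in DU145. Past the fold change threshold there were 3 higher and 1 lower in PC3 and 2 higher and 5 lower in DU145, and the medians were 0.02 in PC3 and 0.05 in DU145. The share with an adjusted p under 0.05 can be set beside the 37.3% and 20.1% of all genes given above, and that past both thresholds beside 5.38% and 8.94%.

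**Figure D4:**
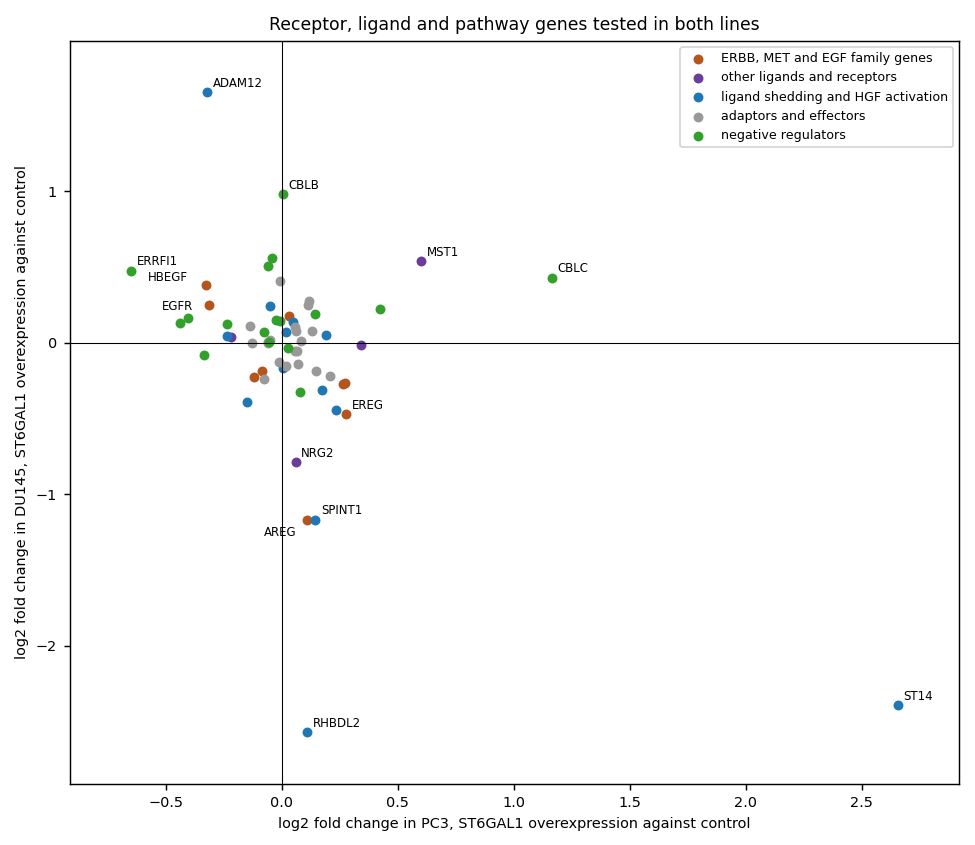
log2 fold change in PC3 (horizontal axis) against that in DU145 (vertical axis) for the receptor, ligand and pathway genes tested in both lines, coloured by list, with the genes past both thresholds in either line and EGFR, HBEGF and EREG named. Most points lie around the origin, ST14 lies at 2.66 and -2.39, and AREG and SPINT1 lie near -1.17 on the DU145 axis.

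To see whether the 4 clustered ligand genes moved with the genes around them, the 24 other annotated genes from 1 Mb before EPGN to 1 Mb after BTC were examined. In PC3 12 of them were tested, with a median log2 fold change of -0.38, and 5 were called lower and none higher, against a median of -0.0016 and 1.76% called lower over all genes. These were the chemokine genes CXCL8 (-1.30), CXCL6 (-0.70), CXCL5 (-1.51), CXCL3 (-0.88) and CXCL2 (-0.996), all on the EPGN side. Between these and AREG, EPGN rose by 0.84, while MTHFD2L (0.08, edgeR adjusted p = 0.462) and EREG (0.28, adjusted p = 0.386) did not pass. In DU145 13 were tested, with a median of 0.17, and 3 were called lower, CXCL5 (-4.65), CXCL2 (-0.73) and CDKL2 (-1.63), against 4.61% of all genes called lower. Of the genes nearest to AREG (-1.17) and EREG (-0.47) in DU145, MTHFD2L (0.26, standard error 0.185) and BTC (-0.19, standard error 0.146) did not pass and EPGN was not tested, and whether the neighbours differ from each other was not tested.

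**Figure D5:**
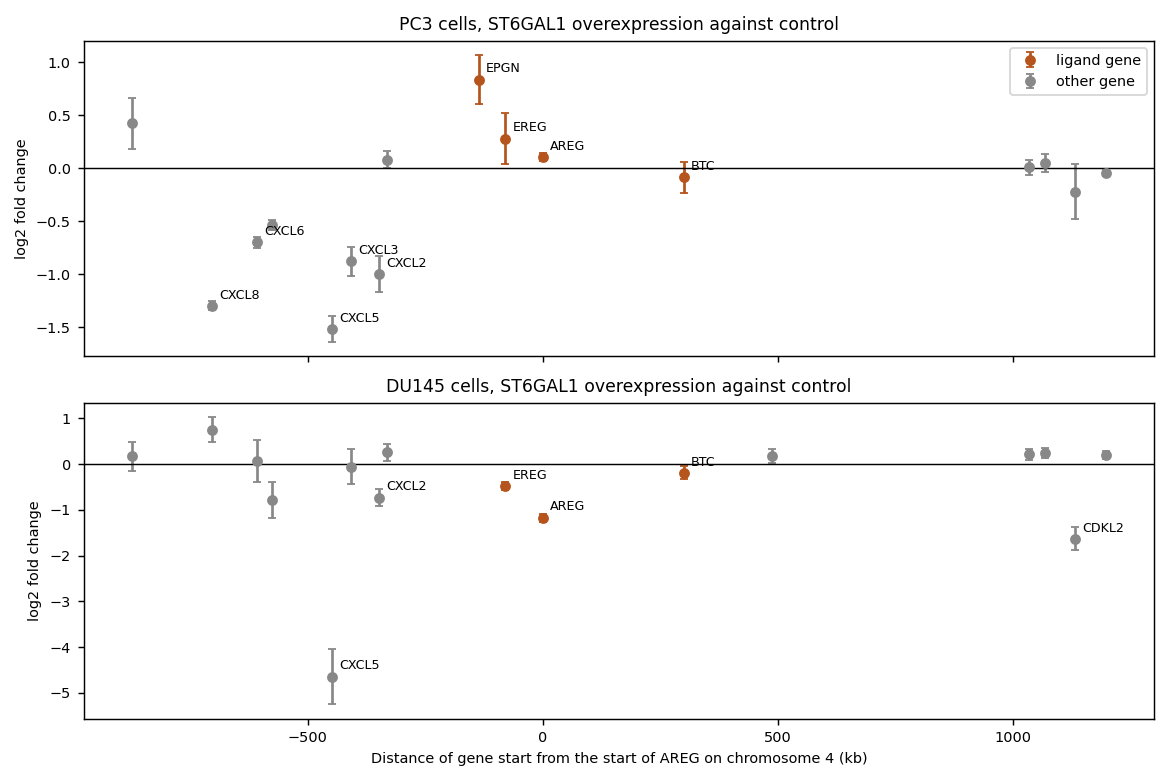
log2 fold change with ST6GAL1 overexpression, with its standard error, of each tested gene within 1 Mb of the ligand cluster, plotted by the distance of its start from that of AREG in kb, in PC3 (top) and DU145 (bottom). The 4 ligand genes are coloured, and other genes are named where called, such as CXCL5 at -1.51 in PC3 and -4.65 in DU145.

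The genes whose pattern was most like those of EGFR and MET were sought among 8678 genes with a mean of at least 10 CPM in each line, by Pearson correlation of log2 CPM centred on the mean of each line over the 11 libraries. For EGFR they were DLC1 (r = 0.959), ACTN1 (0.952) and RAPGEF2 (0.948), and for MET they were LRBA (0.962), TENT5A (0.961) and YTHDF3 (0.959). The libraries share their depth and normalization across genes and fall into 4 groups, so these coefficients are a description of likeness.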

How the data were processed

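The authors deposited raw counts by Entrez identifier, 1 table per line, made from single reads by trimming (Cutadapt), mapping to hg38 (HISAT2) and gene counting (featureCounts). The annotation and strand setting of the counting are not given in the sources used here, so reads of overlapping antisense genes, such as EGFR-AS1 within EGFR, cannot be told apart. Of 28395 identifiers 97.7% matched the RefSeq annotation of GRCh38. Groups came from the sample labels, and DU145 overexpression replicate 1 was not analysed here.

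Tests were run in edgeR 4.0.16 under R 4.3.3 (filterByExpr defaults, TMM factors, robust quasi-likelihood test, Benjamini-Hochberg adjustment over all genes tested), separately for each line and, for the interaction and the control lines, over all 11 libraries. The word passed stands for an adjusted p under 0.05, and called for that together with a log2 fold change beyond 0.58 in size. Where the call of a single gene is said to be lost or gained, only the adjusted p is meant. Biological coefficients of variation were 0.0226 (PC3) and 0.0817 (DU145). Normalized CPM were scaled within each line, and CPM per kb over all libraries, with MANE Select transcript lengths. The alternatives were limma-voom (limma 3.58.1), DESeq2 1.42.0, RLE factors, no filter, at least 10 counts in every library, other thresholds, the replicate number as a block, each library left out, all libraries in 1 fit, and an offset for GC content and length.

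The 10 genes, the pathway lists and the motifs were chosen with earlier results of these data known. Named were the 10 genes, the other family ligands and receptors, called genes of the other lists (at most 4 per list and line, by adjusted p), ERRFI1, LRIG1, ADAM17 and RHBDF2, called genes near the chromosome 4 cluster, and the 3 genes most like EGFR and MET. The scripts were tested on simulated counts. All pairs of libraries of a group differed by more than sampling noise.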

Additional observations from a re-analysis of the deposited data

Results flagged for a closer look

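For 16 of the genes named, PC3 and DU145 responded differently to ST6GAL1 overexpression at an adjusted p under 0.05 in edgeR's interaction test over all 11 libraries. Of all 14952 genes tested, 19.7% passed. The count of named genes is not comparable with that share, since ST14, RHBDL2, SPINT1, ADAM12 and CBLB were named because they were called within a line. Each value here is a difference of log2 fold changes, DU145 minus PC3. Among the receptor genes it was 0.56 for EGFR, -0.54 for ERBB2 and -0.54 for ERBB3, and among the ligand genes -1.28 for AREG, -0.75 for EREG and 0.71 for HBEGF. Among the related ligands it was -0.85 for NRG2, which missed the threshold without DU145 overexpression replicate 2 (-0.55, edgeR adjusted p = 0.0512). For NRG4 it was -4.30 (edgeR adjusted p = 0.0494), where PC3 libraries held 0 to 4 counts, and this call was lost without any 1 of 8 libraries and with limma-voom (-1.98, adjusted p = 0.109). Among genes of ligand release and HGF activation it was -5.05 for ST14, -2.69 for RHBDL2, -1.32 for SPINT1, 1.97 for ADAM12 and 0.29 for ADAM17, the last of which was lost without PC3 control replicate 1 (0.25, edgeR adjusted p = 0.0577) or PC3 overexpression replicate 1 (0.25, adjusted p = 0.0589). Among negative regulators it was 1.12 for ERRFI1 and 0.97 for CBLB. ST6GAL1 itself differed by 1.06, its log2 fold change being 3.58 in PC3 and 4.65 in DU145. No group held the 4 libraries needed to test for a single library far from the others.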

How the results depend on the processing

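Of 207 counts of called genes under alternatives, 195 stayed within 1.5 times the reported count. Without a fold change threshold, 7, 3 and 6 of the 10 genes passed in PC3, in DU145 and for the difference between lines, as did 22, 15 and 21 of the listed pathway genes and 5056, 2747 and 2949 of all genes. With each library left out, all genes called numbered 830 to 2072 in DU145 and 1148 to 2270 for the difference, and 2 to 5 of the 10 genes were called for the difference, the highest of each without DU145 overexpression replicate 3. Where that group was left with 1 library, it was assumed to vary like the other groups. Among fold changes of the 10 genes, 559 kept their direction and side of an adjusted p of 0.05. Of the rest, 20 no longer passed, 13 came to pass and 3 reversed. Among other named genes the numbers, in the same order, were 981, 36, 5 and 22. The reversals were of values that did not pass. With each library left out, log2 fold changes in PC3 ranged from -0.16 to 0.052 for BTC, -0.12 to 0.29 for ERBB4, -6.9e-04 to 0.11 for NRG2, -0.0024 to 0.30 for RHBDL2 and -0.013 to 0.019 for CBLB. In DU145 they ranged from -0.060 to 0.13 for EGF, -1.1e-04 to 0.31 for NRG4, -0.26 to 1.00 for MST1 and -0.27 to 0.19 for MST1R, and for the difference between lines from -2.80 to 3.21 for EPGN and -0.87 to 0.40 for MST1. CBLB in PC3 was at -0.0029 without a filter, and with the GC and length offset DU145 values were -0.030 for EGF and 0.17 for MST1R. That trend held 8.33% (DU145) and 0.460% (PC3) of the variance of log2 fold changes. The cause of these changes was not tested.

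Libraries with the same replicate number correlated in their deviations from the group means at 0.046, 0.13 and 0.033 in PC3, where not every library matched its own number best, and at 0.21 and 0.51 in the 2 pairs of DU145, so the numbers were not taken as pairs. With the replicate number as a block, 740 genes were called in PC3, 1517 in DU145 and 1452 for the difference. In DU145 EGFR (0.28, edgeR adjusted p = 0.00775) and ERBB2 (-0.26, adjusted p = 0.0141) then passed, ERBB3 (-0.22, adjusted p = 0.0720) did not, and EGF turned to -0.0048. No paired analysis was possible for the control lines because a block within each line takes up the difference between lines. Depth limits EPGN, EREG in PC3, NRG1, RHBDL2 and CBLC in PC3, which rest on under 50 counts per library. ADAM12 in DU145 control cells and the lower group of ST14 in each line also held libraries under 50 counts.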
